A study of Homo sapiens with 40 samples.

Results

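FXR1, G3BP2, CAPRIN1, EIF2AK2 and CPEB4 encode proteins that control how messenger RNA is translated, and they are described here as long-read transcript models, 16 models of 5 genes out of 19972 models of 9460 genes. The members were taken by gene symbol alone, as every model assigned to 1 of the 5 symbols. The series concerns H9, an established line of human embryonic stem cells (ESC, control), and neural progenitor cells (NPC) obtained from it by dual-SMAD inhibition, a standard block of BMP and TGF-beta signalling. Polyadenylated RNA of both was taken from the cytosol and, after separation by ribosome load, from monosomes, heavy polyribosomes (at least 5 ribosomes) and light polyribosomes (2 to 4), in 16 long-read libraries (2 in each group) and 24 short-read libraries (3 in each group). The data used here are 1 catalogue of transcript models with their exons and coding regions. It carries no count and no value per library, so ESC, NPC and the fractions are not compared, read depth is unknown, no replicate error can be given and no test was run. All the groups come from 1 cell line.

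These genes meet in the cytoplasm where initiation is slowed and mRNA is stored. EIF2AK2, also known as PKR, is a kinase that binds double-stranded RNA and phosphorylates the initiation factor eIF2, which lowers translation across the cell. G3BP2 and CAPRIN1 bind each other and build stress granules, the bodies that collect stalled mRNA, and G3BP2 does so together with its paralogue G3BP1. FXR1 is an RNA-binding paralogue of the fragile X protein FMR1 and is best known from muscle and brain. CPEB4 binds the cytoplasmic polyadenylation element in 3' untranslated regions and controls poly(A) tail length, with known roles in neurons.

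Where the models begin can be read against the reference genome. The bases below are from RefSeq (GRCh38.p14), 5' to 3' on the strand of the gene. They are shown because 4 of the 5 genes differ in their deposited 5' untranslated exons and the first bases are where those exons start. Capitals mark the start codon, the first base of a model, or a motif, as named on each line. The proximal first base of G3BP2 is that of model 3, at 75673394, which has no coding region. Model 1, the proximal model with a coding region, begins at 75673415, outside the printed stretch. The distal first base of G3BP2 is that of model 4.
FXR1 start codon, chr3:180912671-180912700: ctttgcggttccaacATGgcggagctgacg
EIF2AK2 first base of the longer first exon, chr2:37156978-37157007: agggaaggcggagtcCaaggggaaaacgaa
EIF2AK2 first base of the shorter first exon, chr2:37156938-37156967: agctctcccgaagccGcgggtctccggccg
EIF2AK2 repeated GAAA, chr2:37156971-37157000: gcggagtccaagggGAAAACGAAActgaga
G3BP2 distal first base, chr4:75724436-75724465: gatcctgctggccgcAgccacccacgtggt
G3BP2 proximal first base, chr4:75673380-75673407: cgtggtccttgtcGcacgtcgcagcgcc
CAPRIN1 upstream first base, chr11:34051655-34051684: ctctccgcttctcccGcccctcgcgaccca

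FXR1 and G3BP2 had 4 models each, CAPRIN1 and EIF2AK2 3 each and CPEB4 2, against a median of 2 models over all genes. Of the 16 models 15 had a coding region, and these held 12 distinct coding regions. Every coding model of a member began its coding region at the same position as the other coding models of its gene, so all 5 genes had a single start position. Over all 4072 genes with at least 2 coding models, 44.8% had at least 2 start positions. By contrast, the coding regions ended at 2 or more positions in 4 of the 5 members, all but CPEB4, against 41.6% of those genes. A single start with at least 2 stops was found in 4 of 5 members and 24.8% of genes. In G3BP2 and EIF2AK2, however, all stop positions but 1 are ends of models that the coding region runs into. With coding regions within 2 nt of a model end left out, 2 of the 3 members that kept at least 2 coding models, FXR1 and CAPRIN1, had at least 2 stop positions, against 39.1% of genes. Introns upstream of the deposited start codon differed between models in 4 of the 5, all but FXR1, against 59% of genes. The share was 32.6% when, as in the members, the models compared share their start position. CAPRIN1 counts here through models 2 and 3, which began 530 and 596 nt downstream of the RefSeq start. Whether these models and those of CPEB4 are whole at their 5' end was not tested. With 5 genes these counts describe the members and were not tested.

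**Figure D1:**
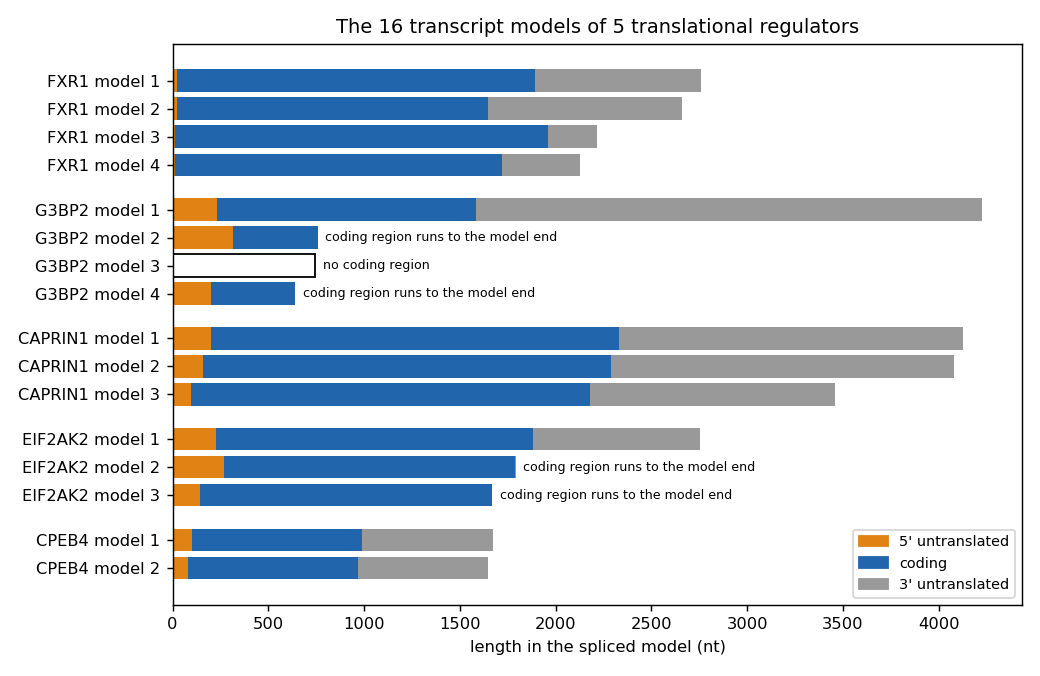
Length in nt (x axis) of the 5' untranslated, coding and 3' untranslated part of each of the 16 models (y axis, numbered from the longest model of each gene). FXR1 has the shortest 5' untranslated parts, 11 to 25 nt, and 4 coding regions of G3BP2 and EIF2AK2 run to the end of their models.

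The models of the 5 genes thus varied at the 2 ends of the mRNA in different ways. FXR1 varied inside and at the end of its coding region, while CAPRIN1 varied at both ends. CPEB4 varied in front of the deposited coding region, in models that began 29845 nt or more downstream of the RefSeq start. Whether the CPEB4 models are whole at their 5' end was not tested. G3BP2 and EIF2AK2 varied in front of the coding region, and their models also ended at different places. Of 75 distinct introns of the members, 48 were present in every model of their gene: 13 of 19 in FXR1, 16 of 18 in CAPRIN1, 14 of 17 in EIF2AK2, 5 of 8 in CPEB4 and none of 13 in G3BP2. In G3BP2 1 model of 2 exons and the 2 kinds of first exon left no intron common to all.

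FXR1 lay on the plus strand of chromosome 3, from 180912661 to 180977160. Its 4 models opened within 14 nt of each other, in 1 first exon that ended at 180912736, and the coding region began at 180912686 in each. The 5' untranslated region was therefore 24, 25, 15 and 11 nt in models 1 to 4, with no intron. Of all 17247 coding models 10% had 25 nt or fewer in front of the coding region, and the median was 147 nt. The printed start codon has A at the third base before it and G directly after it. A purine there together with G after the codon was found at 65.2% of the 1774 ATG starts of the catalogue that lay in a RefSeq window. These are the positions that matter most in the Kozak sequence, the context in which a start codon is read well.

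The coding regions of FXR1 held 622, 540, 649 and 569 codons in models 1 to 4, counting the stop codon, and the 4 were all different. They shared the first 378 codons, and 3 stretches accounted for every difference behind them. The first was an intron of 87 nt, from 180962941 to 180963027, spliced in 3 models and retained in model 4. Its length is divisible by 3, and model 4 read through it as 29 additional codons, from codon 379 on. Introns of this length or shorter made up 9.7% of the 1268 retained introns of the catalogue.

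The second was a cassette exon of 81 nt, from 180971075 to 180971155, present only in model 3, where it added 27 codons, from codon 535 on. FXR1 is known for a muscle-enriched exon in this part of the gene. Model 1 joined its 2 neighbours directly, and models 2 and 4 lacked the next exon too. Of 2133 coding cassette exons of all genes, 44.1% had a length divisible by 3, as this one has.

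The third was a cassette exon of 92 nt, from 180975313 to 180975404, present in models 1 and 3 and skipped in models 2 and 4. It too began at codon 535 in model 1 and, behind the 81 nt exon, at codon 562 in model 3. Its length leaves a remainder of 2 when divided by 3, so the last exon, which begins at 180976122 in each model, was entered in a different reading frame with and without it. With the exon, 171 nt of the last exon were coding and the coding region ended at 180976292. Without it only 17 nt were coding, and the end lay 154 nt further upstream, at 180976138. Models 1 and 2, which differ by this exon alone, thus shared 534 codons from the start, differed in length by 82 codons, and their last codons were read from the same last exon in different frames. Model 3 with both exons ended like model 1, and model 4 with the retained intron ended like model 2.

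A last exon read in 2 frames was found in 7.04% of the 4728 loci with at least 2 models. In 4.44% of the loci it went with a cassette exon not divisible by 3 directly in front of it, as in FXR1. At least 1 cassette exon of any kind was present in 49.4% of these loci, and in FXR1, G3BP2 and CPEB4 among the members. A stop over 50 nt in front of the last exon junction is the usual rule for a candidate of nonsense-mediated decay. None of the 11 coding models of the members with a stop before the model end met it. The other 4 run to the model end, have no stop described and could not meet it. Of all coding models, those running to the end included, 3.14% were candidates. The early stop of FXR1 lay in the last exon.

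The 3' ends of FXR1 fell at 2 places. Models 1 and 2 ended at 180977160 and 180977154, and models 3 and 4 ended 607 nt or more upstream, at 180976546 and 180976547. The 3' untranslated regions were 868, 1016, 254 and 409 nt long. Each of the 2 stop positions was thus found once with the longer and once with the shorter end, so the models tie neither stop to 1 of the ends.

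**Figure D2:**
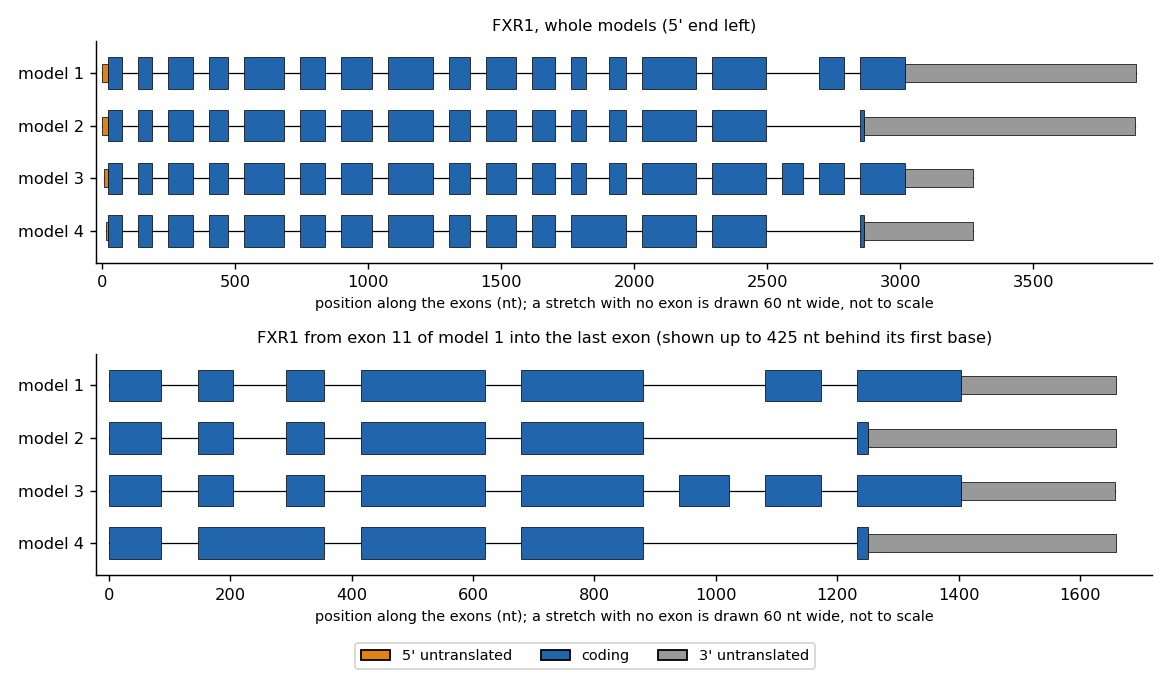
The 4 FXR1 models (y axis) drawn along their exons in nt (x axis, 5' end left), with coding parts tall and blue, untranslated parts low, and stretches without exon drawn 60 nt wide; the upper panel shows whole models and the lower panel the part from exon 11 of model 1. Models 1 and 3 hold the 92 nt exon and read 171 nt of the last exon, while models 2 and 4 lack it and read 17 nt.

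G3BP2 lay on the minus strand of chromosome 4, from 75642786 to 75724450, and its models began at 2 places. Models 1 and 3 began at 75673415 and 75673394 with a first exon that ended at 75673208, here called proximal. Models 2 and 4 began at 75724446 and 75724450 with a first exon that ended at 75724276, here called distal. The 2 first exons ended 51068 nt apart. First bases at least as far apart as in G3BP2, 51056 nt, were found in 1.5% of the 4728 loci. Both first exons were non-coding. The proximal one in model 1 and the distal one in model 4 were joined directly to the exon from 75661931 to 75662049. The coding regions of models 1, 2 and 4 began in that exon, at 75662025.

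The distal models differed by a cassette exon of 121 nt, from 75724056 to 75724176, in the 5' untranslated region. Model 2 held it and model 4 skipped it. The 5' untranslated region was 316 nt in model 2, 199 nt in model 4 and 232 nt in model 1, the only proximal model with a coding region. The same coding start was therefore preceded by 3 different leaders.

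RefSeq lists 5 start windows for G3BP2, each reaching from 250 nt before a start to 50 nt after it. The distal models began 9 and 13 nt upstream of a listed start, and the proximal ones 180 and 201 nt downstream of the nearest. The distal window held the motif TGCGCATGC, part of the palindrome recognised by the factor NRF1, 175 nt upstream of the first base of model 4. This is a match of letters, and binding of NRF1 was not tested. The motif was searched on both strands, and 1.56% of the 35116 windows held it. The window of the other members and the other windows of G3BP2 did not hold these letters. Its surroundings are
G3BP2 distal motif, chr4:75724615-75724644: agcggccaagaTGCGCATGCgcggggacgt
The end of the proximal first exon lay in a RefSeq window as well, and the capitals on the next line mark the first 2 bases of the intron behind it.
G3BP2 proximal donor, chr4:75673193-75673222: cgccgttggctggagGTgtgtacgggcgcc

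Only model 1 of G3BP2 held a whole coding region, with 450 codons in 10 coding exons and a 3' untranslated region of 2644 nt, a length not exceeded by 99.1% of all coding models. Both distal models ended at 75656924, the last base of an exon that model 1 splices further. Their coding regions of 147 codons ran to within 1 nt of that end and matched the first 147 codons of model 1. They are open at the end, and what follows the distal first exon beyond this point is not in the models. Model 3, with 744 nt, held the proximal first exon and a last exon from 75661493 to 75662049 that went 438 nt into the intron of 3006 nt used by the other models. It had no coding region.

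**Figure D3:**
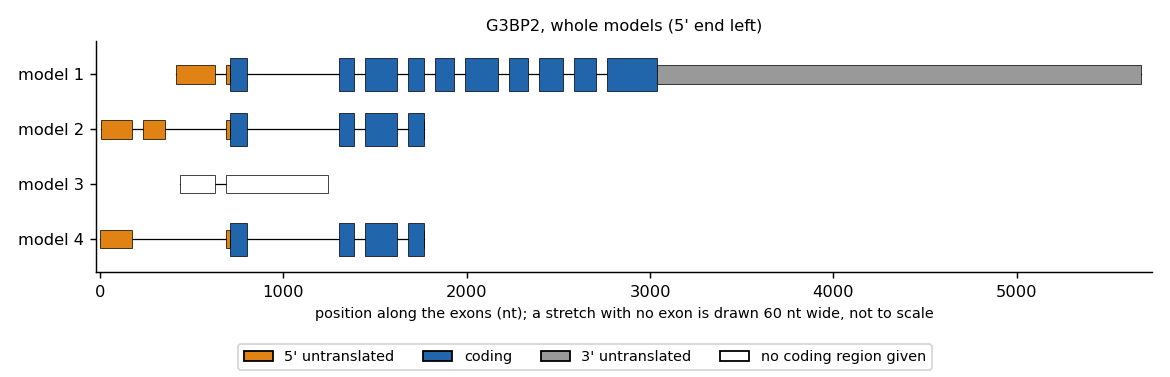
The 4 G3BP2 models (y axis) along their exons in nt (x axis, 5' end left), with coding parts tall and blue, untranslated parts low, and model 3, which has no coding region, in white; stretches without exon are drawn 60 nt wide. Models 2 and 4 begin at the distal first exon and stop at one exon end, whereas model 1 begins at the proximal first exon and carries the 450 codons.

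Coding regions that ran to within 2 nt of the model end were found in 4 of the 15 coding models of the members, 2 of G3BP2 and 2 of EIF2AK2, against 3% of all coding models. Of the 517 such models in the catalogue 3.68% ended at a splice donor of another model of the gene, as both of G3BP2 did. For these models the deposited stop position is the end of the model, and the protein end is not described.

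CAPRIN1 lay on the plus strand of chromosome 11, from 34051670 to 34101161. The coding region began at 34052421 in each of the 3 models. Model 1 had a first exon of 202 nt, from 34051670 to 34051871, then an intron of 549 nt, and its second exon opened with the first base of the coding region. Its 5' untranslated region was thus the first exon exactly. Models 2 and 3 had no intron in front of the coding region and began inside that intron of model 1, at 34052261 and 34052327, with 160 and 94 nt of 5' untranslated sequence. The first base of model 1 lay 61 nt upstream of the RefSeq start, and those of models 2 and 3 lay 530 and 596 nt downstream of it. Whether models 2 and 3 are whole at their 5' end was not tested.

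At the 3' end CAPRIN1 had 2 forms. Models 1 and 2 shared 1 coding region of 710 codons that ended at 34099367, with 3' untranslated regions of 1794 and 1790 nt. Model 3 did not splice at 34097761 but went on for 1298 nt into the intron of 1541 nt behind it, and ended at 34099059. Its coding region read 20 nt of this intron and ended at 34097781, which gave 695 codons and a 3' untranslated region of 1278 nt. The first 688 codons were the same, followed by 65 nt of coding sequence in models 1 and 2 and 20 nt in model 3. The protein ends therefore differ in the models, by 15 codons in length and in the bases read behind the shared part. CAPRIN1 had no cassette exon and no retained intron.

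A last exon that runs into an intron used by another model was found in 16.3% of the 4728 loci, and in 13% such a last exon held the end of a coding region, as in CAPRIN1 model 3. In the members it was found in CAPRIN1 and, without a coding region, in G3BP2 model 3.

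EIF2AK2 lay on the minus strand of chromosome 2, from 37106405 to 37156992. All 3 models used 1 first exon end, at 37156908, and began their coding region at 37147806 in the third exon, so each had 2 introns in front of the start codon. Model 2 opened at 37156992 with a first exon of 85 nt, and models 1 and 3 opened 40 nt further downstream, at 37156952, with 45 nt. The second exon had 2 acceptor sites 84 nt apart and measured 167 nt in models 1 and 2 and 83 nt in model 3. Together these gave 5' untranslated regions of 228, 268 and 144 nt. An alternative acceptor was found in 23.4% of the loci.

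EIF2AK2 is known as an interferon-induced gene. Its RefSeq window held GAAA followed after any 2 bases by GAAA, the core of the interferon-stimulated response element, printed above with capitals. The search covered both strands, 3.57% of the 35116 windows held this repeat, and no window of the other members did. The repeat began 6 nt downstream of the first base of model 2 and ended 25 nt upstream of the first base of models 1 and 3. It therefore lay inside the first exon of model 2 and in front of that of the others. A match of letters is not a bound site, and no interferon treatment is among the groups. TATAAA was in no window of the members and in 11.5% of all windows, and GGGCGG, a GC box, was in at least 1 window of 4 members and in 45% of all windows.

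**Figure D4:**
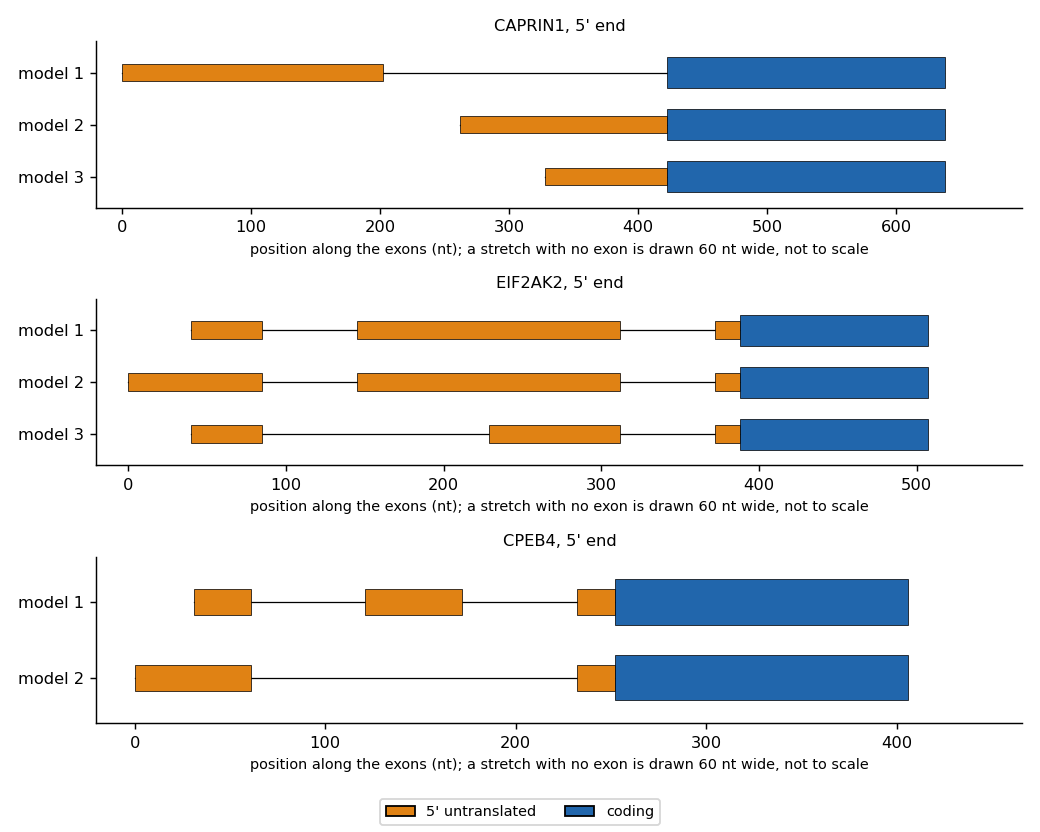
The 5' parts of the CAPRIN1, EIF2AK2 and CPEB4 models (y axis) along their exons in nt (x axis), with 5' untranslated parts low and orange and coding parts tall and blue; stretches without exon are drawn 60 nt wide. In each gene the coding region starts at 1 position behind leaders of 94 to 202 nt (CAPRIN1), 144 to 268 nt (EIF2AK2) and 81 to 101 nt (CPEB4). The CPEB4 leaders are those in front of the deposited start codon. Whether the CPEB4 models, and CAPRIN1 models 2 and 3, are whole at their 5' end was not tested.

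The coding region of EIF2AK2 was closed only in model 1, with 552 codons ending at 37107273. The last intron of that model, from 37107396 to 37107473, measured 78 nt, and 0.755% of the 73516 distinct introns of the catalogue were that short or shorter. Among the other members, each CAPRIN1 model held a shorter intron, of 77 nt. Models 2 and 3 ended at 37107484 and 37107482, inside the exon of 54 nt in front of that intron. Their coding regions of 507 and 508 codons ran to within 2 and 1 nt of the end and matched model 1 base for base up to there. The 3 stop positions counted for EIF2AK2 thus include 2 that are ends of models, and 1 protein end is described.

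**Figure D5:**
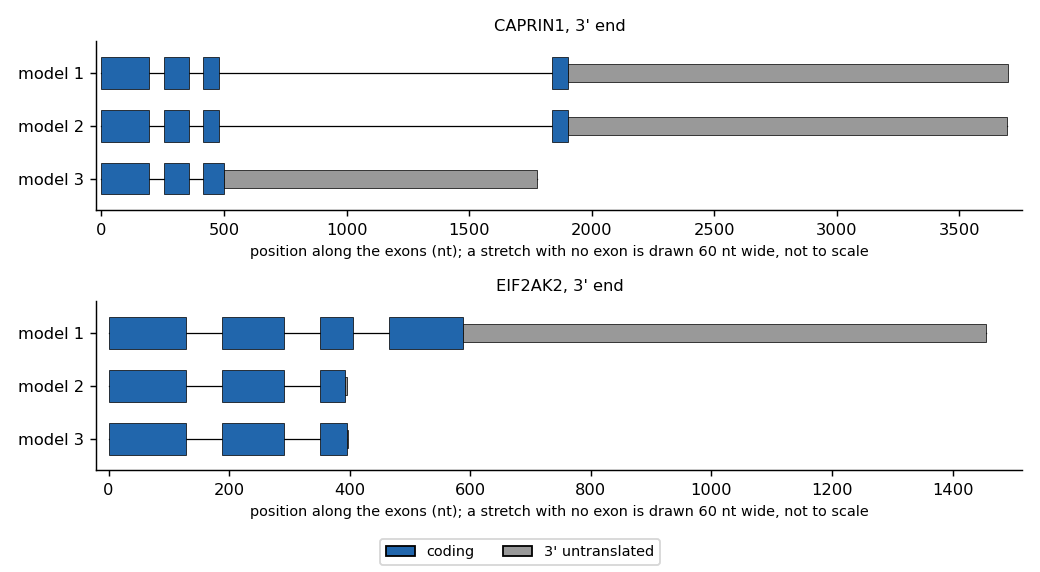
The 3' parts of the CAPRIN1 and EIF2AK2 models (y axis) along their exons in nt (x axis), with coding parts tall and blue and 3' untranslated parts low and grey; stretches without exon are drawn 60 nt wide. CAPRIN1 model 3 reads 20 nt past the splice site used by models 1 and 2, and EIF2AK2 models 2 and 3 end inside the exon before the last intron of model 1.

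CPEB4 lay on the plus strand of chromosome 5, from 173918194 to 173956819. Its 2 models shared 1 coding region of 296 codons, from 173944987 to 173956137, and had 3' untranslated regions of 682 and 680 nt. They differed by a cassette exon of 51 nt, from 173932450 to 173932500, held by model 1 and skipped by model 2. The exon lay in front of the deposited start codon, and the deposited 5' untranslated regions measured 101 and 81 nt. The length of the exon is divisible by 3. Whether it is coding in a CPEB4 mRNA that begins further upstream was not tested.

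The CPEB4 models began 29876 and 29845 nt downstream of the start that RefSeq lists for the gene. Of 7389 genes with a listed start, 1.19% had all their models at least that far downstream, whereas 88.9% had a model that began within 100 nt of a listed start, as FXR1, G3BP2, CAPRIN1 and EIF2AK2 did. CPEB proteins are known to carry a long and variable amino-terminal part in front of their RNA-binding domains. Whether the 296 codons are read from this start, and whether the models are whole at their 5' end, was not tested.

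Set side by side, the closed coding regions of the members held 296 codons in CPEB4, 450 in G3BP2, 540 to 649 in FXR1, 552 in EIF2AK2 and 695 or 710 in CAPRIN1, against a median of 285 over all coding models. Of the 15 coding models 11 were closed by a stop before the model end. The 3' untranslated regions of closed models ranged from 254 nt in FXR1 model 3 to 2644 nt in G3BP2 model 1, against a median of 429 nt over all coding models.

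Of 45 other translational regulators listed beside the members, 33 had a model and 17 of these had at least 2 (51.5%, against 50% of all genes with a model), with a median of 2 models. Among 16 with at least 2 coding models, 9 had at least 2 stop positions (56.2%, against 41.6% of all genes with at least 2 coding models). At least 2 start positions were found in 6 (37.5%, against 44.8%) and differing 5' untranslated introns in 7 (43.8%, against 59%). These counts of 16 genes were not tested. TARBP2, which encodes a double-stranded RNA-binding partner of Dicer and PKR, had the most with 12 models, 7 coding regions and 5 start positions. TIA1, a stress granule protein gene, had 4 models with 4 coding regions, and the helicase gene DDX3X had 3 with 2.

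Of the paralogues of the members, G3BP1 had 3 models with 1 coding region of 467 codons. FMR1 and FXR2 had 1 model each, of 350 and 674 codons, and a single model shows no variation. Among the other eIF2 kinases EIF2AK1 had 2 models with 2 coding regions of at most 631 codons, 1 start position and 2 stop positions. EIF2AK3 and EIF2AK4 had no model. CPEB1 had 1 model of 487 codons, and CPEB2 and CPEB3 had none. Absence from the catalogue does not show that a gene was off in these cells, and models longer than 5877 nt were not found for any gene.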

How the data were processed

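The file used holds, per the file itself, the first and last position in nt of each transcript, exon and coding segment, in GTF format with PacBio named as source on each line, as deposited by the authors. STAR 2.7.8a and Salmon 1.9.0 are named by the submitters' processing notes, with no step assigned to either. How models were assembled and filtered, how coding regions were found, and the build are not stated in those sources. Per the labels' protocols, R2C2, a method that sequences each circularised cDNA several times, was used for long reads. Every model in the file has at least 2 exons.

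The build and the meaning of the coding end were settled against RefSeq's start windows (GRCh38.p14, 300 nt each). Of 1799 deposited start codons inside a window 99.8% read ATG, of 2620 introns 98.7% began with GT, and all 54 coding ends read a stop codon. Coordinates are therefore given in GRCh38, counted from 1, and codon counts of closed coding regions include the stop codon. Those of the G3BP2 and EIF2AK2 models whose coding region runs to the model end include none. All 5 members matched a window by symbol, as did 7389 of the 9460 catalogue genes.

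Models were numbered by length within each gene. An internal exon was a cassette exon if another model spliced its neighbours together at the same sites. An intron of 1 model that fell wholly within an exon of another was retained there, and alternative acceptors shared a donor. Loci are genes on 1 chromosome and strand. The callers were tested on simulated loci (Python 3.11.15). Coding lengths were not set beside RefSeq proteins, which were not used here. No library was compared, no test was run and no interval applies to the members. The members, lists and settings were chosen with earlier results of these data known. Named genes are the 5 members, their paralogues in the list of 45 regulators and the 3 genes of that list with the most models. Genes with the same numbers of models, coding regions, starts and stops as a member were only counted: 12 others for FXR1, 29 for G3BP2, 99 for CAPRIN1, 96 for EIF2AK2 and 665 for CPEB4.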

Additional observations from a re-analysis of the deposited data

How the results depend on the processing

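If at least 2 models had to hold and at least 2 to skip an exon, 1 of the 4 cassette exons of the members was left, the 92 nt exon of FXR1, and 687 of 3571 over all genes; genes with 2 or 3 models cannot meet this requirement. Leaving out coding regions within 2 nt of a model end gave at least 2 stop positions in 2 of 3 members (FXR1 and CAPRIN1) and in 39.1% of genes, in place of 4 of 5 and 41.6%. With at least 3 coding models required, 4 of 4 members and 51.9% of genes had at least 2 stop positions, in place of 41.6% of genes. In G3BP2 and EIF2AK2 this count again rests on ends of models that the coding region runs into. Under the same requirement, at least 2 start positions were found in 0 of 4 members and 58.1% of genes, in place of 44.8% of genes. Counting 5' untranslated introns only between models with 1 start position gave 32.6% of genes in place of 59%, and 4 of 5 members as before. These members include CAPRIN1 and CPEB4, for which whole 5' ends were not tested. The other 6 of 12 alternatives stayed within the error of the share, within 1.5 times the count or within 1 SD. No paired analysis was possible because the models carry no value per library. Depth is unknown, so how completely the isoforms were sampled cannot be stated.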
